A study of Homo sapiens with 12 samples.

Results

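NCI-H226 is an established human pleural mesothelioma line, described in the labels as NF2 null and as sensitive to GNE-7883, a small-molecule inhibitor of the TEAD transcription factors. The comparison covers 6 RNA-seq libraries of these cells, 3 labelled Sensitive_GNE-7883 and 3 labelled Sensitive_DMSO, the vehicle, out of 12 libraries in the series. The other 6 came from a resistant derivative, NCI-H226_CL3, and are likewise labelled GNE-7883 or DMSO. All of the cells are of 1 line and share the loss of NF2, DMSO-treated cells included, and the resistant line is a single named derivative. The dose of GNE-7883 is not given in the sources used here, nor is the time of exposure, for either line. The libraries were chosen by their titles, and 18035 of the 58302 genes in the deposited count table had enough counts to be tested.

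TEAD proteins bind DNA but activate genes mainly through the co-activators YAP and TAZ. The Hippo kinases LATS1 and LATS2 keep YAP and TAZ out of the nucleus, and NF2 (merlin) acts upstream of these kinases at the cell cortex. Loss of NF2, common in mesothelioma, therefore leaves YAP and TAZ free to enter the nucleus, where TEAD-bound enhancers drive genes of growth, adhesion and matrix.

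Total counts in the 6 libraries ran from 34035917 to 44744884. Levels are given as CPM, the count scaled to a common library size with TMM factors, and each gene was tested with edgeR's quasi-likelihood test on the 12 libraries with 1 mean for each of the 4 groups. A gene is said to have risen or fallen where its Benjamini-Hochberg adjusted p was under 0.05. Fold changes are GNE-7883 over DMSO on the log2 scale, given with their standard error, and groups are 3 libraries each. The labels do not say whether replicates were separate cultures, so the p-values speak only of the spread between libraries, which may be technical.

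DMSO replicate 2 stood apart from its group. The chi-square of its counts against the other DMSO libraries was 39.7 and 45.7 per degree of freedom, against 3.33 between those other libraries and 3.52 to 11.4 for pairs within the remaining groups. Its genes deviated from the group mean by gene length, with a median log2 deviation of 0.15 in the quintile of genes with the shortest exons and -0.16 in the quintile with the longest. Values without it are given wherever they moved a count by over 1.5 times or ended a call. Mesothelial markers were abundant, and the summed level of the 18 was 15289, 18353 and 15275 CPM with DMSO and 12755, 12324 and 12709 CPM with GNE-7883. Much of this sum came from the keratins KRT7, KRT18 and KRT8, with DMSO means of 4203, 3937 and 2603 CPM, which fell. By gene, 11 of the 18 rose (10 without DMSO replicate 2) and 5 fell, with a median log2 fold change of 0.26. Over all genes 29.8% rose and 28.4% fell. Calretinin (CALB2) and mesothelin (MSLN) were among the rises, and the falls were WT1, KRT5, KRT7, KRT8 and KRT18. The blood markers summed to 8.93, 8.99 and 8.29 CPM with DMSO and 22.2, 22.1 and 22.7 CPM with GNE-7883, and CD3E and CD68 were at 0 in all 6 libraries. Endothelial markers summed to 62.8, 49.4 and 63.7 CPM with DMSO and 188, 196 and 180.2 CPM with GNE-7883, nearly all of it from the receptor KDR. The epithelial markers summed to 108, 101 and 109 CPM with DMSO and 145, 154 and 142 CPM with GNE-7883. Of the 6 tested epithelial markers ELF3 and MUC1 rose and CDH1, CDH3 and OCLN fell (median -0.20). The alveolar and airway markers summed to 3.08, 3.9 and 3.56 CPM with DMSO and 3.5, 6.46 and 4.16 CPM with GNE-7883. That list does not hold the lung collectin SFTPD, whose higher levels are given below. The labels also call the tissue lung and epithelial. The part of such markers in the results was not tested, and in bulk RNA fewer cells of a kind and less RNA per cell cannot be told apart.

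GNE-7883 changed 10483 of the 18035 genes tested (58.1%). In edgeR's test 5367 genes rose, 29.8% of those tested, and 5116 fell, 28.4%. Counts of list members given below are to be read beside these shares. Most of these changes were small. At least 2-fold rises were found in 1487 genes (8.25%) and at least 2-fold falls in 1154 (6.4%), and changes of at least 4-fold in 295 and 163. The median log2 fold change over all genes was 0.02, and the 5th and 95th percentiles were -1.15 and 1.32. The 3 values with GNE-7883 lay wholly above or below the 3 with DMSO in 11113 genes (61.6%), of which 10054 were called. Every gene given below with a rise or fall has groups that do not overlap, except CTSV, PMVK, THRB and TUBG2, whose ranges overlap. This is not stated for BCL2L1, TWIST2, FOXC2, GRHL1, PDK1, CA9, CA12, EGLN3 and VEGFA, which are given by their call only. Without DMSO replicate 2, 5463 genes rose and 5140 fell, and 9633 of the 10482 called genes still tested kept the call, and the sign was the same in all 10482. The plot of change against level shows rises and falls at every abundance, from transcripts near 1 CPM to those above 1000 CPM.

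**Figure D1:**
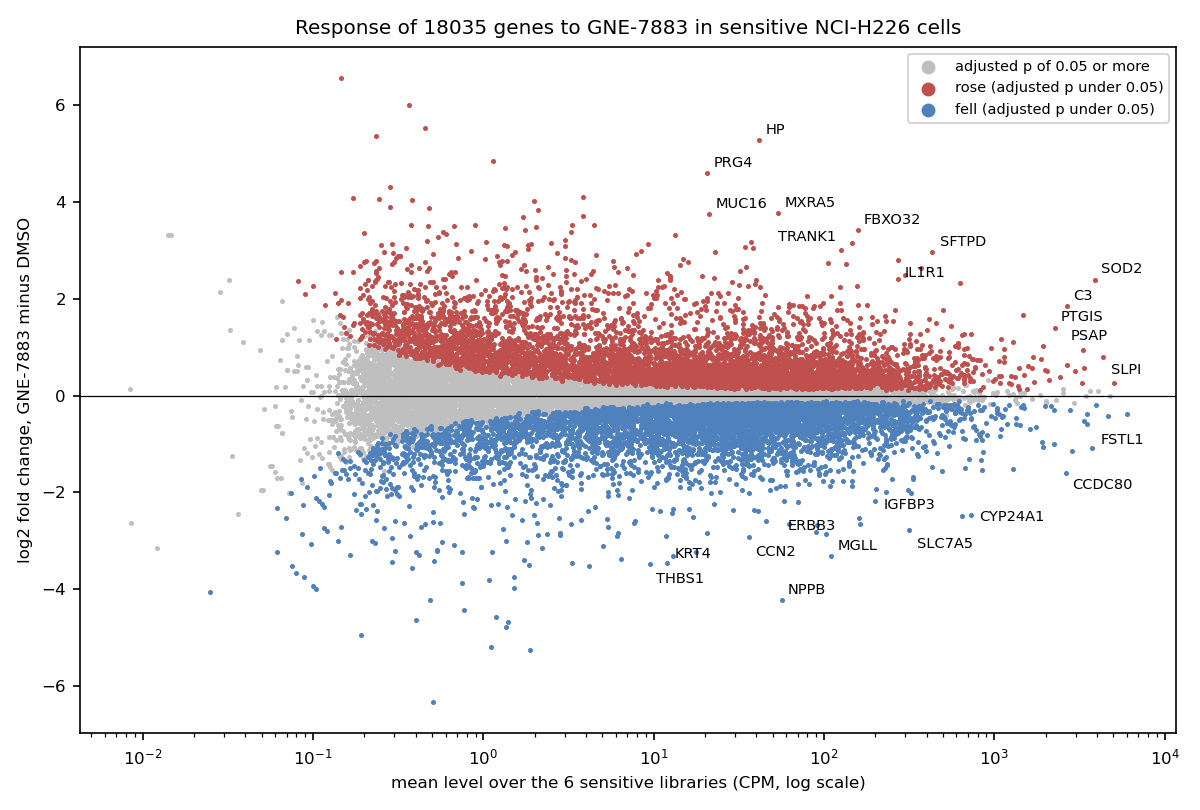
Each point is 1 of 18035 tested genes, with its mean level over the 6 sensitive libraries on the x axis (CPM, log scale) and its log2 fold change (GNE-7883 minus DMSO) on the y axis, in red where it rose, blue where it fell and grey where it was not called. HP and PRG4 stand highest among the labelled genes at 5.27 and 4.59, NPPB lowest at -4.23, and SOD2, C3 and CCDC80 show changes of 2.39, 1.85 and -1.59 at levels above 1000 CPM.

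Genes with large falls included several whose promoters hold the short sequence that TEAD proteins recognise. The window searched was the RefSeq promoter (GRCh38.p14), 250 bases before to 50 bases after the annotated start, and the motif was GGAATG or its reverse complement CATTCC. Sequences were available for 21 of the 30 genes named for the largest falls, and 4 of them (19%) held the motif, against 1 of 22 (4.55%) of the genes with the largest rises. The share was 11.1% over tested genes and 14% over all promoters of the RefSeq table, and counts this small were not tested against it. The 250 bases before the start of these 4 fallen genes are printed 5′ to 3′ on the gene's own strand, with the motif in capitals, because they show how the matches are placed. CCN2 lies at chr6:131951373-131951622 on the minus strand, ANKRD1 at chr10:90921088-90921337 on the minus strand, THBS1 at chr15:39580829-39581078 on the plus strand and IGFBP5 at chr2:216695550-216695799 on the minus strand.
CCN2: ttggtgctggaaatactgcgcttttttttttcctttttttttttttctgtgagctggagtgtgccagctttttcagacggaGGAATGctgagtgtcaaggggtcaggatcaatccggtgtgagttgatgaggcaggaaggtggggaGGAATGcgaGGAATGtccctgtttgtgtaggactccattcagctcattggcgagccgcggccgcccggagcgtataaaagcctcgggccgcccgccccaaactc
ANKRD1: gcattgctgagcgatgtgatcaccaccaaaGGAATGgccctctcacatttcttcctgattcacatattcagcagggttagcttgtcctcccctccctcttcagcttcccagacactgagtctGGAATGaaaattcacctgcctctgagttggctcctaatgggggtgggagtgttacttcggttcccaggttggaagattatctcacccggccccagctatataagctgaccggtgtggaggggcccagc
THBS1: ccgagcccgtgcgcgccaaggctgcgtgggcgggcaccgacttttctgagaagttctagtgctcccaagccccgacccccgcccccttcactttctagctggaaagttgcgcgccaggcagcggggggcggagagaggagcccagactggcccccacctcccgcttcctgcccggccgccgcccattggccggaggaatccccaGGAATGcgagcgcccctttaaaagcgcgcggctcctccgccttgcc
IGFBP5: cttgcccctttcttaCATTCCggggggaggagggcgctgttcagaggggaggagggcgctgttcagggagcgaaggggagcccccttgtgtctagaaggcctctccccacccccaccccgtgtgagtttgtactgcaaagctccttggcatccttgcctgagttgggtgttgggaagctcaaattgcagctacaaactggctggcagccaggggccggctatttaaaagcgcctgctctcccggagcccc

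The CCN2 window held 3 matches, whose first bases lie 169, 104 and 95 bases before the start, and ANKRD1 held 2, at 220 and 128 bases. In THBS1 the single match began 46 bases before the start, and in IGFBP5 it began 235 bases before it, on the opposite strand. CCN2, which encodes a matricellular protein long used as a readout of YAP, measured 64, 65.3 and 63.4 CPM with DMSO and 8.73, 8.15 and 8.56 CPM with GNE-7883, a log2 fold change of -2.92 ± 0.061. ANKRD1, a nuclear ankyrin-repeat protein, went from 13.9, 13.6 and 12.3 CPM to 2.06, 1.99 and 2.52 CPM (-2.60 ± 0.11), and thrombospondin-1 (THBS1) from 18.7, 15.1 and 18.7 CPM to 1.64, 1.45 and 1.59 CPM (-3.48 ± 0.12). IGFBP5, which binds insulin-like growth factors, went from 159.9, 139.9 and 172 CPM to 25.1, 23.3 and 25 CPM (-2.68 ± 0.076). In all 4 the 3 libraries of a group lay close together and the groups far apart.

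Across all genes with a promoter sequence, GGAATG was found in 11.1% of the 11688 tested genes, in 10.8% of those not called, in 14.5% of the 715 that fell at least 2-fold and in 18.7% of the 91 that fell at least 4-fold. The share was 11.4% among the 897 genes that rose at least 2-fold and 9.47% among the 190 that rose at least 4-fold. Over all 27305 promoters of the RefSeq table it was 14%, so the 14.5% among falls of at least 2-fold is close to that of promoters at large. A second motif, TGANTCA, the sequence bound by AP-1 factors such as FOS and JUN, showed another order. It was in 5.02% of tested promoters, 4.62% of those that fell at least 2-fold, 4.4% of those that fell at least 4-fold, 9.25% of those that rose at least 2-fold and 13.7% of the 190 that rose at least 4-fold, against 7.76% of the whole table. Among the 30 genes named for the largest rises, 4 of 22 with a sequence held it (18.2%), against 2 of 21 (9.52%) for the largest falls, ANKRD1 among them, in whose sequence above it is not in capitals. Their upstream 250 bases are printed with TGANTCA in capitals, for comparison with the fallen genes: TNFAIP6 at chr2:151357342-151357591 (plus strand), PDGFRA at chr4:54229043-54229292 (plus strand), SFTPD at chr10:79949106-79949355 (minus strand) and TNFSF14 at chr19:6670161-6670410 (minus strand).
TNFAIP6: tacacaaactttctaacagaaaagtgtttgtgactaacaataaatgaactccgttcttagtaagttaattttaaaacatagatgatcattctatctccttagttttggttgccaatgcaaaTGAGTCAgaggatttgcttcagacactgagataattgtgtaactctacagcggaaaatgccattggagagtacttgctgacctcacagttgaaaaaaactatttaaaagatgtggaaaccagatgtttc
PDGFRA: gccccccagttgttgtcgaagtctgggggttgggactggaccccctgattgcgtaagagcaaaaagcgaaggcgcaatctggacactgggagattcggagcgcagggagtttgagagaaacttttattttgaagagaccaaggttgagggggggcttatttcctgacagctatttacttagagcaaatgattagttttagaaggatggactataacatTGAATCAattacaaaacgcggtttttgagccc
SFTPD: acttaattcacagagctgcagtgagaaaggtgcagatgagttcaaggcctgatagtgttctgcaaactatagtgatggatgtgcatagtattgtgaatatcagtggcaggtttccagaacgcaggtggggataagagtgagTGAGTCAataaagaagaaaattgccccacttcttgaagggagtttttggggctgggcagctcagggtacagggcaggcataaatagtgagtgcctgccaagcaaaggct
TNFSF14: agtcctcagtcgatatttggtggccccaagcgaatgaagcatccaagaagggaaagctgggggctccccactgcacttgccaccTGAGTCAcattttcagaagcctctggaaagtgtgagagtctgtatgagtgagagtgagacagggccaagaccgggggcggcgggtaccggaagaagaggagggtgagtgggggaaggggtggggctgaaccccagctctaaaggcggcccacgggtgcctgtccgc

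These matches begin 129, 32, 109 and 166 bases before the start, in that order. TNFAIP6, a hyaluronan-binding protein of inflamed tissue, measured 0.574, 1.05 and 0.492 CPM with DMSO and 6.7, 11.7 and 6.28 CPM with GNE-7883 (3.52 ± 0.28). The growth factor receptor PDGFRA went from 2.04, 1.5 and 2.19 CPM to 15.9, 16.7 and 17.3 CPM (3.13 ± 0.14). SFTPD, the lung collectin surfactant protein D, was far more abundant, at 87.3, 109 and 98.6 CPM with DMSO and 751, 758 and 778 CPM with GNE-7883 (2.96 ± 0.1), and TNFSF14, a cytokine of the tumour necrosis factor family, went from 0.896, 1.09 and 1.26 CPM to 8.12, 8.54 and 7.66 CPM (2.91 ± 0.16). No motif shared by all of the large rises was looked for, and the presence of a match does not show that a factor bound there.

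Among the 30 genes with the largest rises at a level of at least 5 CPM in 1 of the groups were secreted and cell-surface proteins of very different abundance. Haptoglobin (HP), which captures free haemoglobin, measured 1.93, 2.78 and 1.5 CPM with DMSO and 72.5, 89.5 and 80.9 CPM with GNE-7883, the largest of these rises at 5.27 ± 0.15 (adjusted p = 3.54e-13). PRG4, or lubricin, a lubricating proteoglycan of serosal and joint surfaces, measured 1.7, 1.4 and 1.86 CPM with DMSO and 41, 41.4 and 36.7 CPM with GNE-7883 (4.59 ± 0.12). Both were near the bottom of the expressed range with DMSO and moderately abundant with the inhibitor. MUC16, the membrane mucin that is the source of the CA-125 antigen, was less even, at 2.16, 1.26 and 5.58 CPM with DMSO and 59.3, 31 and 27.8 CPM with GNE-7883 (3.75 ± 0.37), and GNE-7883 replicate 1 stood well above replicates 2 and 3. FBXO32, a muscle-atrophy ubiquitin ligase subunit, was tight within groups, at 27.4, 25 and 28.8 CPM with DMSO and 282, 298 and 287 CPM with GNE-7883 (3.42 ± 0.064). The interleukin-1 receptor IL1R1 went from 73.7, 60.1 and 71.8 CPM to 460.4, 495 and 472 CPM (2.80 ± 0.079).

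Further large rises came from genes of transport and glycan processing. The water channel AQP1 went from 2.46, 2.14 and 2.79 CPM to 24.2, 22.9 and 26.1 CPM (3.31 ± 0.12), and MAN1A1, a Golgi mannosidase that trims N-glycans, from 7.76, 6.11 and 8.59 CPM to 61.6, 67.4 and 70.7 CPM (3.16 ± 0.1). The chitinase-like secreted proteins CHI3L1 (3.14 ± 0.063) and CHI3L2 (2.81 ± 0.13) rose together, the former from 28.8, 30.7 and 29.4 CPM to 257, 263 and 266 CPM. PIK3IP1, a membrane inhibitor of phosphoinositide 3-kinase, rose 7.95-fold, TRANK1 8.05-fold, and the potassium channel KCNH5 8.42-fold. MXRA5, a secreted matrix protein, went from 7.62, 4.97 and 9.55 CPM to 107, 100.4 and 93 CPM (3.77 ± 0.17), and DMSO replicate 2 was its lowest library. ENPP2 (autotaxin), which makes lysophosphatidic acid, rose 6.73-fold to 5.7, 6.25 and 6.15 CPM.

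**Figure D2:**
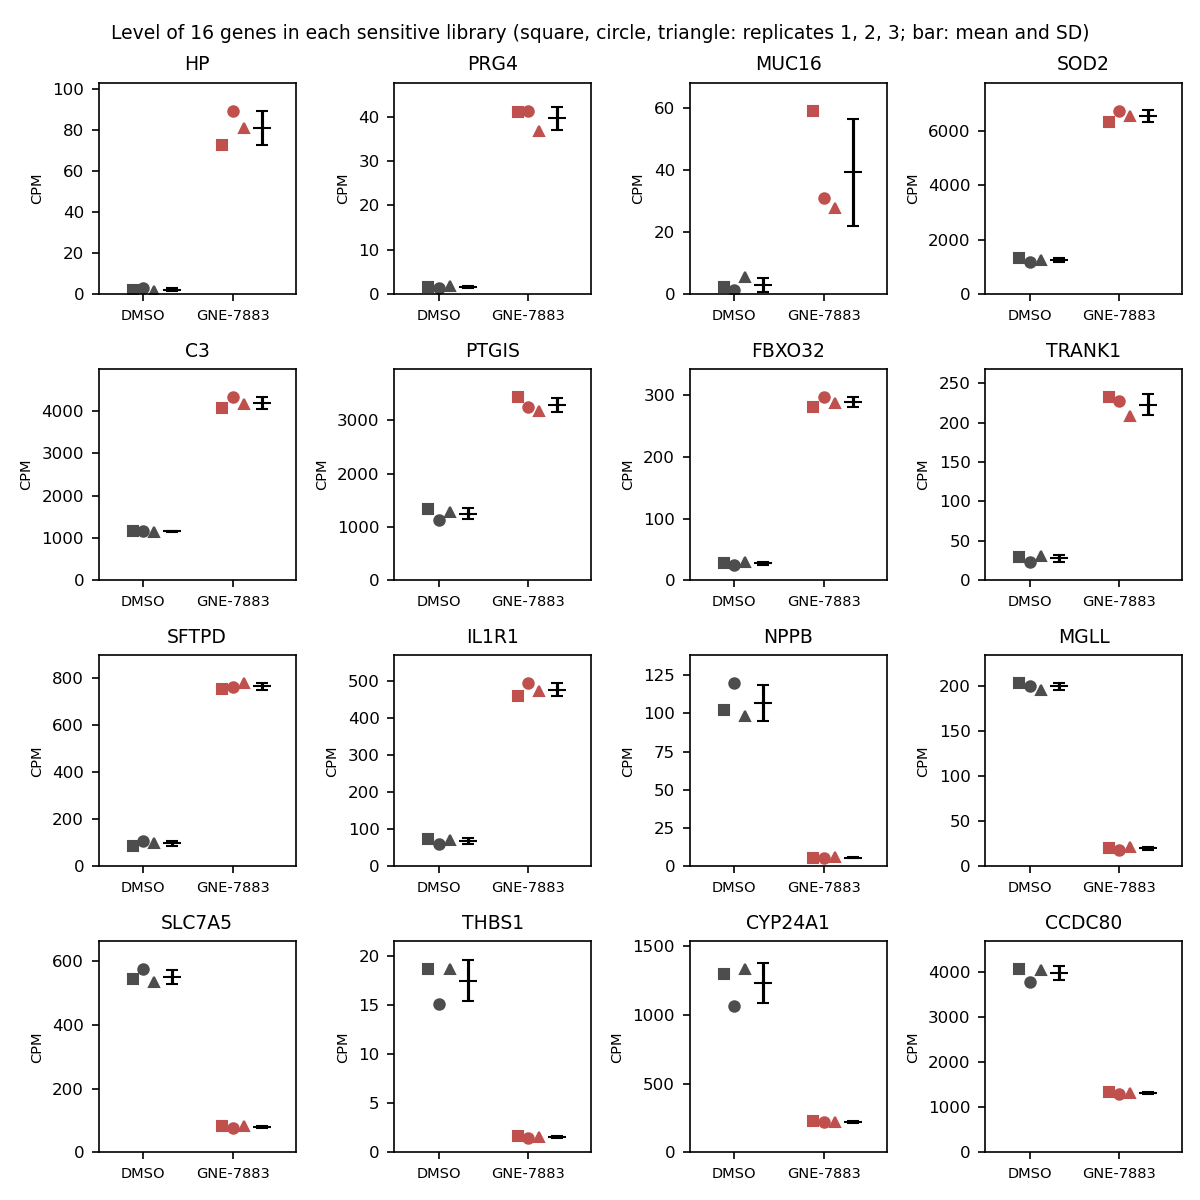
Levels of 16 genes in each of the 6 sensitive libraries (y axis, CPM; each panel has its own scale starting at 0), DMSO on the left and GNE-7883 on the right, squares, circles and triangles being replicates 1, 2 and 3 and bars the mean ± SD. In each panel the 3 GNE-7883 libraries lie apart from the 3 DMSO libraries, and MUC16 shows the widest spread, from 27.8 to 59.3 CPM with GNE-7883.

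Among genes with at least 5 CPM in 1 group, the largest falls included a hormone gene and genes of transport, adhesion and lipid turnover. NPPB, the precursor of B-type natriuretic peptide, measured 102, 120.0 and 98.5 CPM with DMSO and 5.51, 5.22 and 6.26 CPM with GNE-7883 (-4.23 ± 0.11, adjusted p = 1.27e-13). Monoglyceride lipase MGLL, which releases the last fatty acid from glycerol and degrades an endocannabinoid, measured 204, 200.3 and 196 CPM with DMSO and 20.4, 18.3 and 21.8 CPM with GNE-7883 (-3.31 ± 0.074). STXBP6, a SNARE-binding protein, went from 183, 178 and 184 CPM to 26.4, 22.8 and 25.6 CPM (-2.86 ± 0.062). For these genes the spread within a group was small beside the distance between the groups.

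SLC7A5, the transporter that brings large neutral amino acids such as leucine into the cell, was an abundant transcript and measured 543, 576 and 535 CPM with DMSO and 81.8, 76.8 and 83.7 CPM with GNE-7883 (-2.77 ± 0.07). Tissue factor (F3), the starter of blood coagulation, went from 155, 149 and 165 CPM to 22.2, 22.5 and 22.5 CPM (-2.81 ± 0.057), and the gap junction gene GJA5 fell 5.98-fold. CYP24A1, which inactivates vitamin D, was among the most abundant of the strongly reduced transcripts, at 1296, 1062 and 1335 CPM with DMSO and 231, 220.1 and 219 CPM with GNE-7883 (-2.46 ± 0.074). ERBB3, the neuregulin receptor, went from 286, 242 and 291 CPM to 50.3, 44.4 and 47.7 CPM (-2.52 ± 0.074), and its ligand NRG1 fell too, 3.42-fold. TRIM58, a ubiquitin ligase, fell 6.29-fold and the kinase MOK 6.28-fold, while WNT5B, a non-canonical Wnt ligand, fell 7.13-fold to 4.92, 4.65 and 5.62 CPM.

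The genes that gained or lost the most counts gave another view, since an abundant transcript can move by much with a small fold change. SOD2, mitochondrial manganese superoxide dismutase, gained more CPM than any other gene, from 1322, 1163 and 1256 CPM to 6322, 6753 and 6550 CPM (2.39 ± 0.056). Complement C3 followed, from 1154, 1173 and 1148 CPM to 4062, 4341 and 4164 CPM (1.85 ± 0.054). The antiprotease SLPI (0.79 ± 0.07), prosaposin PSAP (0.93 ± 0.05), prostacyclin synthase PTGIS (1.40 ± 0.06) and complement protease C1S (1.66 ± 0.058) were next, with smaller folds from high starting levels. On the losing side, CCDC80, a secreted matrix protein, went from 4061, 3781 and 4037 CPM to 1343, 1293 and 1309 CPM (-1.59 ± 0.044), FSTL1 fell 2.11-fold, and the actin-binding protein LIMA1 went from 2031, 1726 and 1989 CPM to 683, 665 and 669.9 CPM (-1.51 ± 0.058). The receptor phosphatase PTPRF fell 2.02-fold, from 3096, 2804 and 3098 CPM to 1546, 1408 and 1499 CPM.

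Per length of transcript (RPKM, as deposited), the most abundant nuclear gene was SLPI in both groups, at 5195 ± 709 (SD) RPKM with DMSO and 8989 ± 188 RPKM with GNE-7883. Ferritin light chain FTL was next in both, at 3930 ± 596 and 4165 ± 228 RPKM, a difference smaller than the spread with DMSO. KRT7 was the third most abundant gene with DMSO at 2337 ± 340.3 RPKM and stood at 1563 ± 43.4 RPKM with GNE-7883, near KRT19, which measured 1684 ± 227 RPKM with DMSO and 1567 ± 29.7 RPKM with GNE-7883. PSAP, B2M and CALB2 were among the top 15 genes with GNE-7883, at 1473 ± 35.8, 1316 ± 80.8 and 1107 ± 7.59 RPKM, and outside the top 15 with DMSO.

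Complement genes rose as a group. Of the 32 listed genes of the cascade and its regulators, 23 were tested, 18 rose and 0 fell, with a median log2 fold change of 1.17, against 29.8% rising over all genes and a median of 0.02. Their summed level was 4248, 4462 and 4222 CPM with DMSO and 10308, 11118 and 10656 CPM with GNE-7883. Beside C3 and C1S, factor B (CFB), which forms the alternative-pathway convertase, went from 40.3, 49.2 and 40.2 CPM to 193, 215 and 205 CPM (2.24 ± 0.085). The receptor C3AR1 rose 6.75-fold from under 1 CPM. In edgeR's test 7 lists had 0 falls and 6 had 0 rises, and among their tested members 0 moved that way at an unadjusted p under 0.05 and 0 in DESeq2.

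Inflammatory mediators rose beside complement. In the list of NF-kB targets, cytokines and chemokines 30 of 40 tested genes rose and 2 fell, the latter being IL11 and IL1B. The neutrophil chemokine CXCL8 measured 17.1, 19.1 and 15.8 CPM with DMSO and 66.5, 83.3 and 68.6 CPM with GNE-7883 (2.07 ± 0.097). CCL7 rose 8.69-fold and CXCL10 6.45-fold, both to only about 3 CPM, while IL11 went the other way, from 8.27, 9.15 and 8.62 CPM to 2.42, 1.48 and 2.23 CPM (-2.08 ± 0.13). Acute phase proteins and protease inhibitors showed 15 rises and 5 falls among 21 tested genes. The elastase inhibitor PI3 went from 111, 145 and 105 CPM to 383, 416 and 417 CPM (1.76 ± 0.095). Those that fell included the serpins SERPINB2, SERPINB7 and SERPINH1 and the Kunitz-type inhibitor TFPI2.

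Of the 27 interferon-stimulated genes, 26 rose and 0 fell (median 1.26), and their summed level was 848, 839.7 and 807 CPM with DMSO and 1660, 2074 and 1502 CPM with GNE-7883. GNE-7883 replicate 2 was the highest of its group, for example for OAS2, at 7.72, 6.78 and 6.76 CPM with DMSO and 33.6, 51.7 and 29.5 CPM with GNE-7883 (2.43 ± 0.2). Antigen presentation was mixed: 13 of 26 tested genes rose and 8 fell. B2M, the light chain of class I molecules, went from 2014, 2305 and 1942 CPM to 3049, 3442 and 3194 CPM (0.63 ± 0.067), and the peptide editors TAPBP and TAPBPL rose 1.88-fold and 2.31-fold. In contrast, CD274, which encodes the checkpoint ligand PD-L1, measured 25.1, 23.9 and 27.1 CPM with DMSO and 6.78, 7.49 and 6.18 CPM with GNE-7883 (-1.90 ± 0.08), and the NKG2D ligands ULBP2 and MICB fell 3.18-fold and 2.17-fold. Coagulation and fibrinolysis genes fell more often than they rose, with 9 falls and 5 rises in 17. The anticoagulant receptor thrombomodulin (THBD) fell 2.7-fold and tissue plasminogen activator (PLAT) 2.31-fold. Urokinase (PLAU) rose 4.72-fold, to 1, 1.48 and 1.17 CPM.

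The clustered protocadherins, neuronal-type adhesion proteins encoded by tandem arrays on chromosome 5, rose almost throughout. Of 64 listed protocadherin genes 41 were tested, 35 rose and 1 fell (PCDH1), with a median of 1.7 (35, 2 and 1.53 without DMSO replicate 2). All 12 tested genes of the beta cluster rose, with a median of 2.04, and their summed level was 10.9, 11.6 and 12.3 CPM with DMSO and 38.9, 37 and 40.3 CPM with GNE-7883. In the gamma cluster 16 of 18 rose (median 1.79), and the sum was 53.4, 42.3 and 53 CPM with DMSO and 113, 108 and 110.4 CPM with GNE-7883. In the alpha cluster 3 of 5 rose (median 0.90), and outside the clusters 4 of 6 rose and 1 fell (median 0.64). The summed level outside the clusters did not rise: it was 45.3, 45.6 and 45.1 CPM with DMSO and 43.9, 41.1 and 38.7 CPM with GNE-7883. The best measured of the named members, PCDHGB7, went from 4.04, 3.59 and 4.43 CPM to 20.7, 19.6 and 23.1 CPM (2.39 ± 0.096). Members of the alpha and gamma clusters share their 3′ exons and beta members are near copies of each other, so how reads were divided among them is uncertain, while the cluster sums are less affected.

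**Figure D3:**
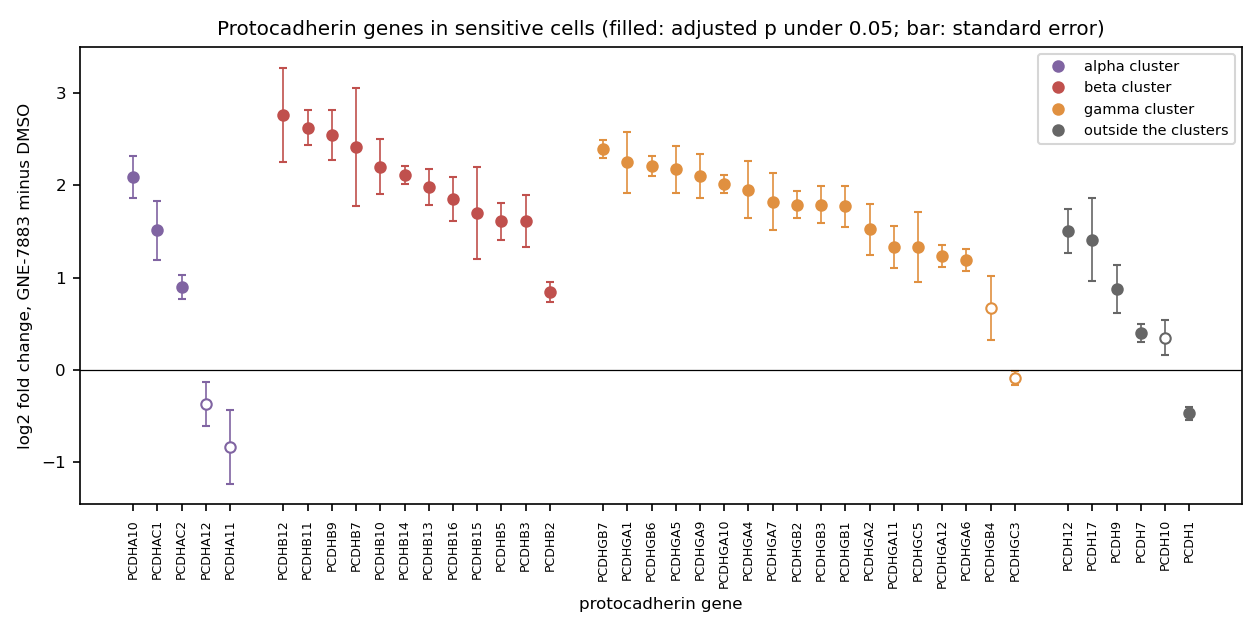
Each point is 1 of 41 tested protocadherin genes (x axis, by cluster), with its log2 fold change in sensitive cells (GNE-7883 minus DMSO) on the y axis, bars for the standard error and filled points for adjusted p under 0.05. All 12 beta genes and 16 of 18 gamma genes are filled and above 0, with medians of 2.04 and 1.79.

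Cadherin genes of the CDH series, by contrast, split evenly, with 5 rises (CDH2, CDH11, CDH18, CDH22 and CDH23) and 5 falls (CDH1, CDH3, CDH4, CDH6 and CDH8) among 14 tested. The mesenchymal cadherin CDH11 went from 666, 561 and 695 CPM to 1276, 1242 and 1286 CPM (0.98 ± 0.066). E-cadherin (CDH1) fell 6.2-fold from a level already low, 4.16, 2.64 and 3.88 CPM, and CDH4 fell 2.79-fold. Among tight junction genes 9 of 21 rose and 5 fell. CLDN1 went up 2.33-fold, while occludin (OCLN), a transmembrane strand protein, and cingulin (CGN), a cytoplasmic adaptor, fell 2.1-fold and 2.56-fold. Desmosome genes were likewise divided: plakoglobin (JUP) rose 1.93-fold and DSC3 1.72-fold, and the plakophilins PKP2, PKP3 and PKP4 fell 1.92-fold, 1.75-fold and 1.69-fold.

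Of 23 tested integrin subunits 12 rose and 3 fell (ITGA6, ITGAE and ITGB4), with a median of 0.53 (0.34 without DMSO replicate 2). Over all genes 29.8% rose and 28.4% fell. The summed level of the integrin list did not rise: it was 5735, 5631 and 5715 CPM with DMSO and 5762, 5366 and 5697 CPM with GNE-7883. ITGA1, a collagen-binding alpha chain, went from 4.89, 2.85 and 3.69 CPM to 21.5, 20.6 and 21.1 CPM (2.46 ± 0.14). ITGB8, whose heterodimer activates latent TGF-beta, went from 15, 9.25 and 14.2 CPM to 44.2, 42.7 and 43.5 CPM (1.76 ± 0.13). Subunits ITGAX and ITGAM, best known from leukocytes, rose 3.6-fold and 2.66-fold.

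Matrix genes did not move one way. Collagen genes gave 10 rises and 7 falls in 29 tested (median -0.01), near the share of all genes. The basement membrane chains COL4A3 and COL4A4, which are transcribed from a shared promoter region, fell 4.49-fold and 3.65-fold, the latter from 95.1, 68 and 96.8 CPM to 25.1, 22.4 and 23.8 CPM. COL7A1, the anchoring fibril collagen, rose 3.17-fold. For laminins, nidogens and other basement membrane genes the counts were 10 and 5 of 20, with LAMB3 up 2.33-fold and LAMC3 down 1.79-fold. Elastic fibre and matricellular genes gave 15 rises and 11 falls in 34. MFAP5, a microfibril protein, measured 520.4, 524 and 519 CPM with DMSO and 129.9, 128 and 130.0 CPM with GNE-7883 (-2.01 ± 0.05).

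Gelatinases rose: MMP2 went from 3.58, 4.23 and 4.51 CPM to 27.5, 28.8 and 26.7 CPM (2.75 ± 0.081) and MMP9 from 0.322, 0.666 and 0.547 CPM to 4.48, 4.44 and 4.59 CPM (3.14 ± 0.18). The whole list of metalloproteases and their inhibitors had 16 rises and 11 falls in 41, beside 29.8% and 28.4% over all genes. Proteoglycan and hyaluronan genes were balanced at 9 and 9 of 24. Syndecan-1 (SDC1), the main epithelial heparan sulphate proteoglycan, measured 195, 220.2 and 189 CPM with DMSO and 58.9, 55.9 and 62.3 CPM with GNE-7883 (-1.77 ± 0.077), and glypican GPC6 rose 2.22-fold. Of 17 mucin genes only 5 were tested. MUC1 rose 1.81-fold beside MUC16 and MUC22, and MUC3A fell 2.89-fold.

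Cytoskeletal genes showed the clearest loss among tubulins. Here 11 of 14 tested tubulin genes fell and 1 rose (TUBG2), with a median of -0.91. TUBB6 went from 349, 402 and 354 CPM to 91.3, 88.6 and 96.1 CPM (-2.0 ± 0.066) and TUBA1B from 393, 394 and 360.1 CPM to 115, 120.2 and 113 CPM (-1.72 ± 0.059). Gamma-tubulin TUBG1, which nucleates microtubules, fell 2.27-fold. Primary cilium genes, which also depend on microtubules, did the reverse, with 20 rises and 4 falls in 41 (median 0.21). The Hedgehog effector GLI3 rose 2.48-fold and IFT88, a carrier of ciliary cargo, 1.69-fold.

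Contractile genes of the SRF and MRTF programme fell in 11 of 20 cases and rose in 4 (ACTA2, MYLK, VCL and SRF). Transgelin (TAGLN), a smooth muscle actin-binding protein, measured 305, 359 and 318 CPM with DMSO and 74.9, 72.1 and 69.1 CPM with GNE-7883 (-2.18 ± 0.078), calponin CNN1 fell 5.4-fold, and tropomyosin TPM1 fell 1.8-fold from above 1000 CPM. Keratins fell in 9 of 18 and rose in 2 (KRT15 and KRT79, the latter a call lost without DMSO replicate 2). The simple-epithelial pair KRT8 and KRT18 fell 2.09-fold and 2.2-fold, KRT5 fell 2.61-fold and KRT4 10.9-fold. Keratins 8 and 18 were highest in DMSO replicate 2, and their log2 fold changes without it were -0.96 and -1.05.

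DNA repair genes followed the replication and mitosis genes down. Replication genes fell in 27 of 28 cases (median -1.10) and mitosis genes in 26 of 26 (median -1.35), and none of either list rose. Homologous recombination and Fanconi genes fell in 23 of 26, with a median of -1.0, and FANCF rose. RAD54L, a motor of strand exchange, went from 21.2, 21.1 and 21.6 CPM to 7.54, 7.52 and 7.61 CPM (-1.49 ± 0.066) and RAD51AP1 from 47.9, 42.7 and 43 CPM to 16.3, 17 and 16.1 CPM (-1.43 ± 0.065). DNA methylation and chromatin assembly genes fell in 17 of 24, and DNMT3A and TET2 rose. UHRF1, which guides maintenance methylation, fell 3.52-fold and lamin LMNB2 2.94-fold, while TET2, which oxidises methylcytosine, went from 19.2, 10.7 and 20.8 CPM to 43.2, 39.6 and 37.1 CPM (1.25 ± 0.16).

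Replication-dependent histone genes moved against the replication genes in these libraries. Of the 72 listed 19 were tested, 15 rose and 0 fell, with a median of 1.01. H2AC6, the best measured of the named members, went from 7.46, 7.3 and 7.06 CPM to 22.5, 22.6 and 24.3 CPM (1.67 ± 0.073). Histone cluster genes as a whole took only 0.0127% of counts with DMSO and 0.0199% with GNE-7883, a ratio of 1.57, which 3 against 3 libraries cannot take below p = 0.1 in an exact two-sided permutation test. Most of these transcripts lack the poly(A) tail for which the library kit selects.

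Among genes of the FOXO type, linked with quiescence, 19 of 23 rose and 1 fell (CITED2), with a median of 0.84. Sestrin SESN3 went from 4.66, 3 and 4.27 CPM to 20, 18.5 and 18.6 CPM (2.26 ± 0.14) and KLHL24 rose 3.1-fold. FBXO32 and SOD2, described above, are on the same list. In the BCL-2 family 9 of 17 rose and 6 fell. Of the pro-apoptotic BH3-only genes, BCL2L11 (BIM), BMF, BIK, BID and HRK rose and BAD fell: BCL2L11 measured 10.5, 8.56 and 11.8 CPM with DMSO and 42.5, 44.4 and 46.5 CPM with GNE-7883 (2.11 ± 0.11), and BMF and BIK rose 3.41-fold and 2.77-fold at low levels. The anti-apoptotic members were split. BCL2 itself fell 2.37-fold from about 1 CPM and BCL2L1 fell too, while MCL1, BCL2A1 and BCL2L2 rose, the last a call lost without DMSO replicate 2. The fallen members also held the effectors BAX and BAK1. Targets of p53 were split at 13 rises and 6 falls in 25, with TP53INP1 up 3.55-fold and PLK2 down 2.79-fold, from 631, 648 and 628 CPM to 225, 229 and 229.8 CPM.

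Genes that make ribosomes fell with few exceptions. In the ribosome biogenesis list 45 of 46 fell and 0 rose (median -0.76), against 28.4% falling over all genes. LYAR, a nucleolar protein of rRNA processing, measured 27.8, 32.2 and 30.2 CPM with DMSO and 7.65, 8.06 and 8.46 CPM with GNE-7883 (-1.90 ± 0.076), and BOP1 and the polymerase I subunit POLR1E fell 2.4-fold and 2.31-fold. Cytosolic tRNA synthetases fell in 18 of 20 (median -0.49), with MARS1, the methionine enzyme, going from 258, 281 and 257 CPM to 110.2, 114 and 118 CPM (-1.22 ± 0.054). Mitochondrial ribosomal proteins fell in 56 of 78 (median -0.40), or in 47 without DMSO replicate 2, when 1 rose. In the synthetase list 1 gene also rose without that library. Initiation factors fell in 28 of 53, among them EIF5A (2.19-fold), the cap-binding protein EIF4E (1.95-fold) and its repressor EIF4EBP1 (2.05-fold).

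Cytosolic ribosomal proteins changed less and depended on 1 library. With all libraries 38 of 86 fell and 3 rose, with a median of -0.20. Without DMSO replicate 2, 26 fell, 10 rose and the median was -0.07. Their share of counts was 2.23%, 2.83% and 2.17% with DMSO and 2.07%, 2.18% and 2.14% with GNE-7883. The DMSO mean thus rests on replicate 2, and these short transcripts are of the length class in which that library ran high.

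RNA processing and transport followed the same direction as ribosome production. Splicing factors fell in 50 of 69 and rose in 5 (HNRNPH2, HNRNPLL, PRPF40B, SRSF5 and SRSF6), and the core protein SNRPF fell 2.51-fold. Nucleoporins and importins fell in 31 of 49 and rose in 4 (KPNA5, TNPO3, TPR and NUP62CL, the last a call lost without DMSO replicate 2). NUP93, a scaffold of the nuclear pore, went from 97, 103 and 102 CPM to 38.4, 38.2 and 37.6 CPM (-1.40 ± 0.054), and RAN, the GTPase that gives transport its direction, fell 1.93-fold. The proteasome list fell in 34 of 44. Only PSMB10, an interferon-inducible subunit, rose with all libraries, and 4 members rose without DMSO replicate 2. Cytosolic heat shock proteins fell in 20 of 28, and HSPB7, HSPB8 and BAG1 rose. HSP90AB1, an abundant chaperone, went from 2436, 2622 and 2484 CPM to 1254, 1355 and 1281 CPM (-0.95 ± 0.046).

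**Figure D4:**
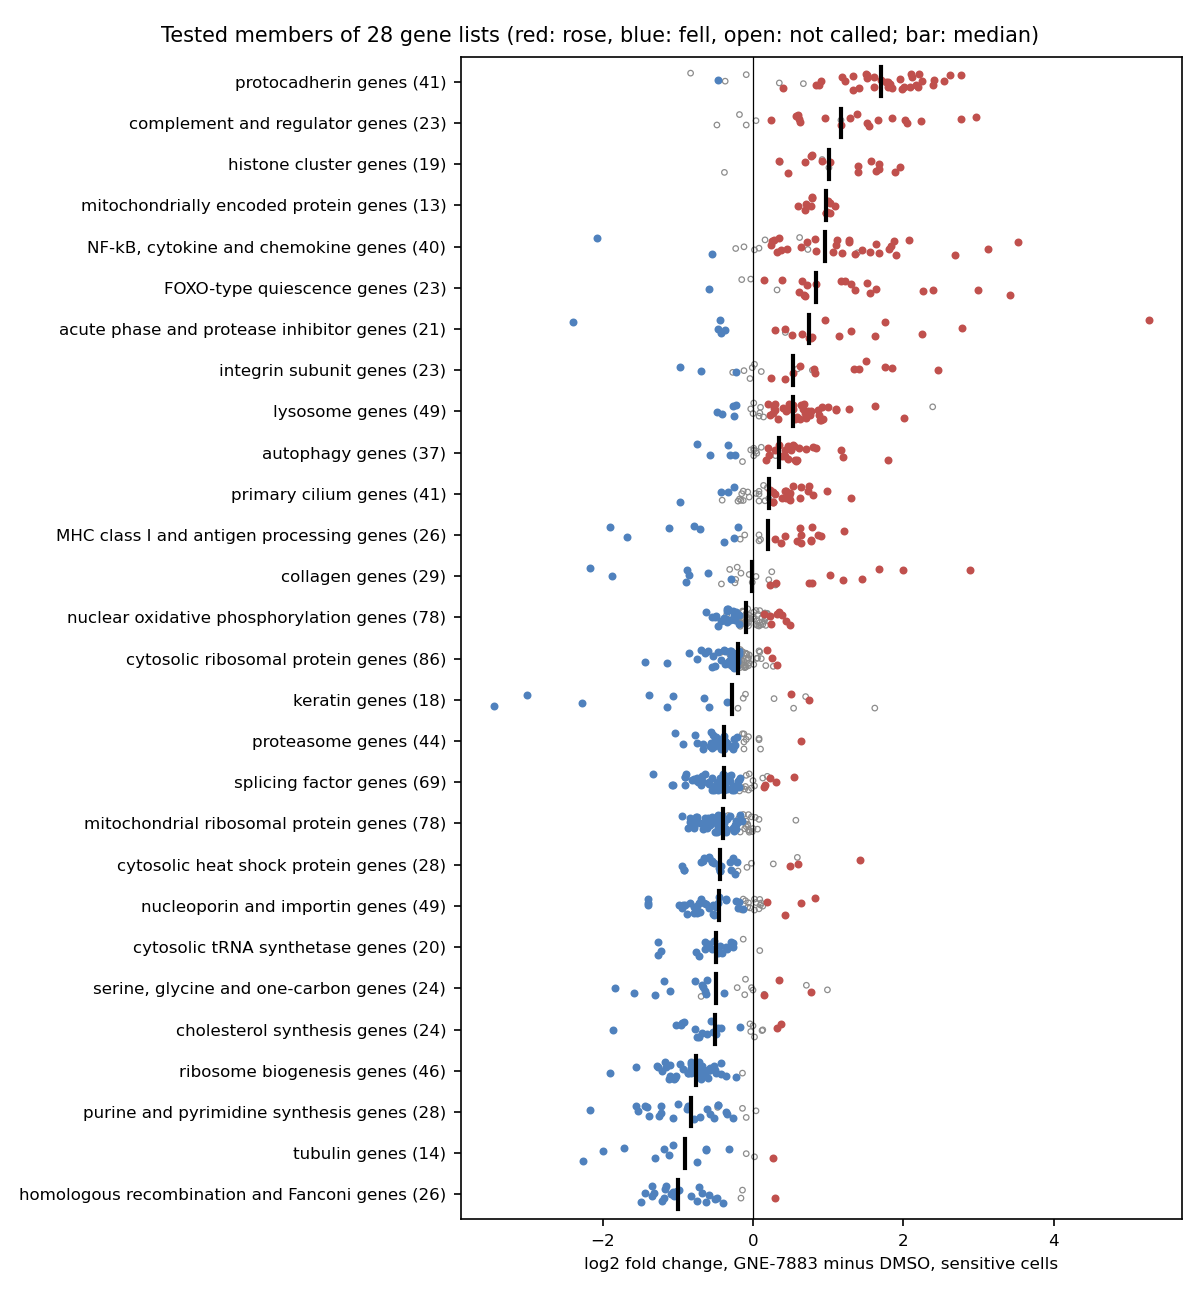
Each point is a tested member of a gene list (rows, number of tested members in brackets), placed by its log2 fold change in sensitive cells (GNE-7883 minus DMSO, x axis), red where it rose, blue where it fell and open where not called, with a bar at the list's median. Medians run from 1.7 for protocadherins and 1.17 for complement to -0.76 for ribosome biogenesis and -1.0 for homologous recombination and Fanconi genes.

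Mitochondrially encoded and nuclear genes of respiration separated. All 13 protein genes of the mitochondrial genome rose, with a median of 0.97. MT-CYB, the cytochrome b subunit, went from 370.1, 366 and 444 CPM to 777, 922 and 817 CPM (1.09 ± 0.091), and MT-CO1 from 1213, 1189 and 1413 CPM to 2473, 2760 and 2495 CPM (1.02 ± 0.091). Mitochondrially encoded genes took 0.522%, 0.525% and 0.622% of counts with DMSO and 0.954%, 1.09% and 0.977% with GNE-7883, a ratio of means of 1.81 (exact two-sided permutation test, p = 0.1, the smallest 3 against 3 can give). The 78 tested nuclear genes of oxidative phosphorylation had 8 rises and 20 falls (median -0.09). This balance turned without DMSO replicate 2, to 25 rises and 18 falls (median 0.02), so no direction holds for them. Citric acid cycle genes fell in 14 of 25 and rose in 6, with fumarase FH down 1.54-fold and pyruvate carboxylase PC up 1.9-fold.

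Nucleotide and one-carbon metabolism fell together. In purine and pyrimidine synthesis 24 of 28 genes fell and 0 rose (median -0.82). CTPS1, the CTP synthase, measured 91.4, 100.5 and 93 CPM with DMSO and 21.1, 21.6 and 20.7 CPM with GNE-7883 (-2.17 ± 0.061), and PRPS1, which makes the ribose donor of all nucleotides, fell 2.7-fold. Serine, glycine and one-carbon genes fell in 12 of 24 and rose in 3 (MTRR and MAT2B among them). PSAT1, a serine synthesis enzyme, went from 47.5, 48.6 and 46.8 CPM to 12.9, 12.3 and 14.9 CPM (-1.83 ± 0.07), and the mitochondrial folate enzyme MTHFD2 fell 2.98-fold. In polyamine metabolism the synthetic enzymes ODC1, SRM and SMS fell 2.08-fold, 2.7-fold and 2.45-fold, whereas SAT1 and SMOX, which break polyamines down, were among the 4 genes that rose.

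Glycolysis and hypoxia genes fell in 17 of 29 and rose in 6, with a median of -0.30. The glucose transporter SLC2A1 went from 69.2, 73.2 and 69.8 CPM to 28, 27.7 and 28.4 CPM (-1.34 ± 0.058), and the hypoxia-responsive peptide adrenomedullin (ADM) fell 3.38-fold. Hexokinase HK2, the first step of glycolysis, went up instead, from 54.3, 45.2 and 57.3 CPM to 142, 152 and 148 CPM (1.5 ± 0.075). The other rises were PDK1, CA9, CA12, EGLN3 and VEGFA, so the hypoxia genes of the list were split. Cholesterol synthesis genes fell in 16 of 24, and PMVK and LSS rose. ACAT2, which makes acetoacetyl-CoA, fell 3.62-fold, and the lipogenic enzymes FASN and ACLY fell 2.22-fold and 1.75-fold. In fatty acid synthesis and desaturation 7 of 19 genes fell and 5 rose (ACACB, ELOVL5, FADS1, SREBF1 and ACSL1). SREBF2, the master regulator of cholesterol synthesis, was among the least changed of all well measured genes (0.00 ± 0.051). Fatty acid oxidation tilted upward, with 12 rises and 6 falls in 24, and peroxisomal ACOX2 went from 3.38, 3.57 and 3.17 CPM to 16.5, 18.5 and 18.3 CPM (2.39 ± 0.11).

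Amino acid transporters did not move as a group. The list had 10 rises and 8 falls in 29, shares near those of all genes (29.8% and 28.4%), or 9 and 13 without DMSO replicate 2. While SLC7A5 fell, 2 other carriers of large neutral amino acids rose, SLC43A2 from 25.7, 31.7 and 25.3 CPM to 175, 192 and 188 CPM (2.74 ± 0.1) and SLC7A8 from 32.8, 31.2 and 28.8 CPM to 128, 132 and 128 CPM (2.06 ± 0.062). Per transcript length, SLC7A5 went from a mean of 117 RPKM to 17.1 RPKM, SLC43A2 from 3.07 to 20.5 RPKM and SLC7A8 from 6.41 to 26.8 RPKM, so SLC7A5 went from the highest of the 3 to the lowest. The glutamate transporter SLC1A3 fell 2.24-fold.

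Stress response genes of the endoplasmic reticulum and ATF4 were divided. In the ATF4 list 7 of 26 rose and 13 fell. CHAC1, which degrades glutathione, went from 1.88, 2 and 2.13 CPM to 6.12, 6.82 and 5.91 CPM (1.65 ± 0.11), while STC2, a secreted glycoprotein induced by the same pathway, went from 16.3, 15.6 and 15.9 CPM to 4.53, 4.56 and 3.84 CPM (-1.89 ± 0.08). Among endoplasmic reticulum chaperones and sensors 10 of 28 rose and 9 fell, beside 29.8% and 28.4% over all genes. The stress sensor ERN1 (IRE1) went from 46.7, 32.7 and 46.3 CPM to 112, 109 and 103 CPM (1.37 ± 0.1) and the co-chaperone DNAJB9 rose 1.99-fold, but the calcium-binding protein CALU fell 1.54-fold.

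Lysosome and autophagy genes rose. Of 49 tested lysosomal genes 36 rose and 5 fell (CTSV, CTSZ, PPT1, LIPA and TFE3), with a median of 0.53, against 29.8% and 28.4% over all genes. The protease CTSO went from 13, 12 and 12 CPM to 47.7, 51.4 and 50.6 CPM (2.01 ± 0.073) and tripeptidyl peptidase TPP1 from 216, 205 and 217 CPM to 497, 543 and 512 CPM (1.28 ± 0.05). Autophagy genes rose in 23 of 37 and fell in 5 (ATG3, ATG5, ATG16L1, ATG101 and TAX1BP1). The cargo receptor SQSTM1 (p62) went from 1190, 1300 and 1186 CPM to 2094, 2167 and 2133 CPM (0.80 ± 0.064), and the initiating kinase ULK1 rose 2.25-fold. NCOA4, the receptor that delivers ferritin to lysosomes, went from 869.7, 749 and 829.8 CPM to 1716, 1808 and 1776 CPM (1.11 ± 0.056).

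Iron and metal genes rose as well. Among 18 tested iron genes 10 rose and STEAP3 fell, a call lost without DMSO replicate 2. Ferritin heavy chain FTH1 measured 51.8, 74.1 and 47.3 CPM with DMSO and 194, 182 and 209 CPM with GNE-7883 (1.76 ± 0.14), ferroportin SLC40A1 rose 3.47-fold to 2.84, 3.2 and 2.33 CPM, and SLC39A8, a zinc and iron importer, went from 234, 219.8 and 223 CPM to 733, 793 and 784 CPM (1.77 ± 0.057). FTH1 has many processed pseudogenes, so its count depends on how such reads were placed. All 4 tested metallothioneins rose, from 1.45-fold for MT1E to 7.56-fold for MT1F. In the NRF2 and glutathione list 18 of 33 rose and 9 fell. The exporter ABCC3 went from 9.07, 9.54 and 10.1 CPM to 47.8, 50.7 and 47.2 CPM (2.34 ± 0.069), and haem oxygenase HMOX1 rose 2.83-fold. Aldehyde dehydrogenase and retinoid genes gave 16 rises and 10 falls in 31, the falls including CRABP2 and RDH10. RARRES1, a retinoid-responsive gene, rose 5.01-fold (2.32 ± 0.058) from 201, 221 and 208 CPM, the retinol receptor STRA6 rose 4.59-fold, and the retinoic acid receptor RARB 2.95-fold.

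Among receptor tyrosine kinases 13 of 29 rose and 9 fell. Beside PDGFRA, the VEGF receptor KDR measured 57.9, 46.2 and 59.3 CPM with DMSO and 185, 193 and 177 CPM with GNE-7883 (1.77 ± 0.082), while FGFR4 fell 4.17-fold. Growth factor ligands leaned the other way with 14 falls and 10 rises in 31. FGF1 went from 12.2, 11.1 and 11.7 CPM to 1.25, 0.694 and 1.38 CPM (-3.38 ± 0.14) and FGF5 fell 3.06-fold, and the PDGF ligand PDGFD went from 9.51, 8.39 and 9.08 CPM to 38.6, 39.2 and 39 CPM (2.11 ± 0.081). In the insulin-like growth factor axis 5 of 15 tested genes rose and 5 fell. IGFBP3, IGFBP4 and IGFBP5, which bind the ligands, fell, IGFBP3 from 1097, 1110 and 1095 CPM to 188, 199.6 and 203 CPM (-2.48 ± 0.052), as did IRS1 and STC2, and the receptors IGF1R, IGF2R and INSR rose with IRS2 and PAPPA.

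Feedback regulators of MAPK signalling did not share a direction. In the list of MAPK phosphatases, Sproutys and SPREDs 9 of 21 rose and 6 fell. DUSP6, a cytoplasmic ERK phosphatase, went from 1.52, 1.43 and 1.53 CPM to 5.87, 7.03 and 5.99 CPM (2.07 ± 0.11) and SPRY4 from 22.6, 20.1 and 20.9 CPM to 57.8, 54.3 and 51.7 CPM (1.37 ± 0.068). DUSP5, a nuclear ERK phosphatase, went from 13.9, 14.6 and 14.6 CPM to 4.62, 4.11 and 5.22 CPM (-1.62 ± 0.092). In the AP-1 list 7 of 18 rose and 5 fell. FOSL1 went from 47.7, 52.6 and 47.2 CPM to 16, 17 and 15.1 CPM (-1.62 ± 0.075) and JUN fell 1.96-fold, while FOS and JUNB rose 1.83-fold and 1.8-fold. RGS4, which shuts off G-protein signals, fell 5.13-fold, from 66.4, 60.5 and 67.9 CPM to 11.6, 10.1 and 16.1 CPM.

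Wnt pathway genes gave 17 rises and 12 falls in 44, beside 29.8% and 28.4% over all genes. The receptor FZD7 went from 5.42, 5.23 and 5.42 CPM to 23.1, 22.6 and 24.9 CPM (2.14 ± 0.093), and the ligand WNT7A fell 3.89-fold. TGF-beta, activin and BMP genes rose in 26 of 54 and fell in 13, with the activin chains INHBA and INHBB down 2.51-fold and 3.48-fold. Notch genes showed 7 rises and 2 falls (NOTCH4 and JAG2) in 23, and the target HEY1 rose 4.99-fold from under 1 CPM. Guidance cues moved strongly in single members. SEMA7A went from 35.6, 39.2 and 36.7 CPM to 7.54, 7.58 and 8.43 CPM (-2.24 ± 0.073), the netrin receptor UNC5B from 315, 295 and 300.0 CPM to 849, 778 and 828 CPM (1.43 ± 0.06), and EFNB3 rose 2.79-fold. Semaphorins, plexins and neuropilins rose in 16 of 28 and fell in 7, and ephrins with their receptors rose in 10 of 19 and fell in 3. In prostanoid and lysophospholipid metabolism, with 13 rises and 9 falls in 29, the cyclooxygenases PTGS1 and PTGS2 both rose, PTGS1 from 4.52, 3.45 and 4.16 CPM to 17, 17 and 16.9 CPM (2.07 ± 0.14), beside prostacyclin synthase PTGIS.

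Transcription factor families held few uniform shifts. Nuclear receptors rose in 18 of 33 and fell in 4 (NR2E3, PPARD, RARG and THRB). Clock genes rose in 11 of 21, with the repressor BHLHE41 up 3.86-fold, and CRY1, CIART and CSNK1E fell. HOX genes rose in 8 of 22, beside 29.8% of all genes, and HOXB7 and HOXB9 fell. HOXA5 went from 14.2, 17 and 14.1 CPM to 43.7, 47.1 and 45.1 CPM (1.58 ± 0.076). Among SOX genes SOX4 measured 36.2, 35.7 and 36.5 CPM with DMSO and 116, 119.9 and 118 CPM with GNE-7883 (1.71 ± 0.051), SOX15 fell 3.22-fold, and the list was even at 4 and 4 of 11. For EMT factors 2 of 12 rose (1 without DMSO replicate 2) and 4 fell. The splicing regulator ESRP2, known from epithelial cells, fell 2.51-fold, and ZEB2, which represses epithelial genes, rose 1.55-fold. The other falls were TWIST2, FOXC2 and GRHL1, and 6 of the 12 were not called. The epithelial factor ELF3 went from 23.3, 25.8 and 23.3 CPM to 75.6, 83.1 and 73.1 CPM (1.68 ± 0.072), so these epithelial genes did not move together.

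Some abundant genes hardly moved. Of the 3868 genes with at least 50 CPM in both groups, the 10 with the smallest change were CPA4, PRSS23, RTN4, GANAB, RAB7A, STT3A, ACO1, COPG1, SREBF2 and STAU1. The serine protease PRSS23 measured 4681, 4896 and 4717 CPM with DMSO and 4727, 4662 and 4818 CPM with GNE-7883 (-0.01 ± 0.041). The endosomal GTPase RAB7A was at 489, 489 and 477 CPM with DMSO and 472, 496 and 479.7 CPM with GNE-7883 (-0.01 ± 0.045), and aconitase ACO1, the cytosolic iron sensor, at 1036, 1009 and 1002 CPM with DMSO and 1029, 1018 and 1036 CPM with GNE-7883 (0.02 ± 0.043). For these genes the 2 sets of libraries were interleaved.

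Changes were unequal between kinds of genes. Protein-coding genes rose in 33% and fell in 31.5% of 13526 cases. Processed pseudogenes (1831) rose in 7.86% and fell in 27.3%, whereas lincRNAs (667) rose in 31.3% and fell in 14.7%, and antisense genes (1071) rose in 27.8% and fell in 11.3%. Counts of processed pseudogenes depend on how reads shared with their parent genes were placed, which is not known here. The kit does not mark strand, so reads of an antisense gene and its partner cannot be told apart. Among protein-coding genes the share that rose went up with exon length, from 23.2% in the shortest quintile through 28.4%, 33.9% and 36.7% to 42.7% in the longest. The share that fell went from 36.6% through 36.4%, 32.5% and 30.3% to 21.6%. Without DMSO replicate 2 the ends were 27.3% and 41.1% rising and 33% and 27.2% falling, so the slope was flatter but kept its direction. The part of length in the lists of short genes, such as ribosomal proteins, was not tested.

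**Figure D5:**
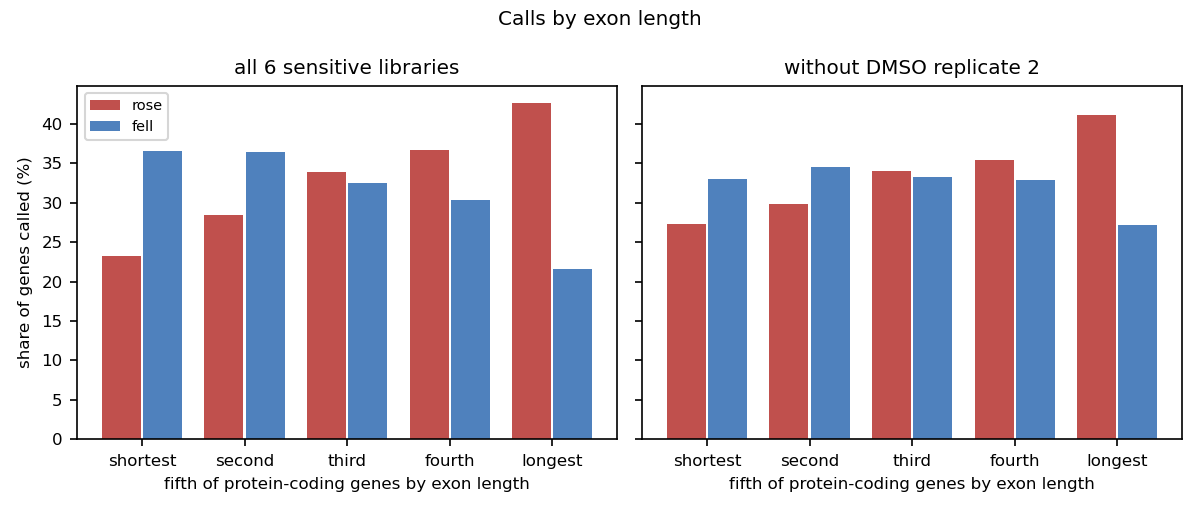
Percentage of protein-coding genes that rose (red) or fell (blue) with GNE-7883 in sensitive cells (bars, y axis) by quintile of exon length (x axis, shortest to longest), with all 6 libraries on the left and without DMSO replicate 2 on the right. Rises climb from 23.2% to 42.7% and falls drop from 36.6% to 21.6% with all libraries, and from 27.3% to 41.1% and from 33% to 27.2% without replicate 2.

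The response of sensitive cells was compared with that of the resistant line in the same fit, by the difference of the log2 fold changes. This difference was called in 6443 genes (35.7%), and GNE-7883 against DMSO within the resistant line was called in 1663 genes. Of the 60 genes named for the largest rises and falls in sensitive cells (at least 5 CPM in 1 group), 57 had a smaller response in the resistant line with a called difference. The 60 were picked by their change in sensitive cells, which enters this difference. A smaller response in the other line is therefore partly built in by the choice. Genes without a called difference in edgeR's test included HP (-3.21 ± 1.9, adjusted p = 0.21) and MUC16 (-3.80 ± 4, adjusted p = 0.497). Within the resistant line 41 of the 60 were called in the same direction and 0 in the opposite one. NPPB changed by -0.33 there, a difference of 3.91 ± 0.14 (adjusted p = 4.44e-11). SLC7A5 changed by -0.55 (difference 2.22 ± 0.093) and SOD2 by 0.87 (difference -1.53 ± 0.075). Ribosome biogenesis genes had a median of -0.21 in the resistant line against -0.76 in sensitive cells, complement genes 0.42 against 1.17, and lysosome genes 0.17 against 0.53. The difference was called for 40 of 46, 13 of 23 and 29 of 49 of these genes.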

How the data were processed

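RNA-seq was made from NCI-H226 cells with a kit that does not mark strand (TruSeq RNA v2), per the labels' protocols, and the single-end reads were 50 bases long. GSNAP, limma and GRCh38.p10 are named in the submitters' processing notes, while the counting tool, with its annotation and strand setting, is not given in the sources used here. The authors deposited 1 table of raw counts per gene and 1 table of RPKM values, in which the count is divided by gene length and library size; the deposited RPKM were used only to compare levels between genes.

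Counts of 12 libraries (3 per group) were fitted with edgeR 4.0.16 (R 4.3.3): filterByExpr, TMM scaling, quasi-likelihood dispersions, 1 mean per group, 8 residual degrees of freedom, and Benjamini-Hochberg adjustment over 18035 genes. The standard error is the log2 fold change divided by the square root of F. CPM are TMM-scaled. Gene types and exon lengths came from GENCODE, in which 58039 of 58302 identifiers were matched, and the counts of the other 263 came to 0.0167% or less of any library. Promoter sequences came from RefSeq (GRCh38.p14) by symbol.

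Named genes were the 30 largest called rises and falls with at least 5 CPM in 1 group and the same direction in every library, the 12 largest gains and losses in CPM, up to 5 called members with the largest change from each of 86 lists at 1 CPM or more, and the 10 least changed genes and 10 most changed long non-coding genes; a gene outside these is named only where a count of members called for it, after its values were seen. The comparison, the gene lists and this rule were chosen with earlier results of these data known. Alternatives were other scalings (DESeq2 size factors, upper quartile), no filter and a filter of 5 CPM, DESeq2 1.42.0, only the 6 sensitive libraries, a replicate block, and each library left out in turn. Totals of 34035917 to 44744884 counts put 3 counts at 0.067 to 0.0881 CPM. The fit was tested on simulated counts. Some genes that these rules name are not reported here.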

Additional observations from a re-analysis of the deposited data

Results flagged for a closer look

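The response to GNE-7883 differed between the lines by a test of the difference itself (resistant minus sensitive, edgeR). The difference was called as higher in 3435 genes and as lower in 3008, together 35.7% of those tested. Among the named genes, 10 were called in opposite directions in the 2 lines. For 7 that fell in sensitive cells the difference was positive: the matrix protein SPARC (0.54 ± 0.055), keratin KRT7 (0.94 ± 0.11), the receptor GPRC5A (0.72 ± 0.061), the cadherins CDH6 (1.52 ± 0.12) and CDH3 (0.62 ± 0.11), cingulin CGN (1.68 ± 0.091) and aldolase ALDOC (1.5 ± 0.12). CGN, for example, changed by -1.36 ± 0.062 in sensitive and 0.32 in resistant cells (adjusted p = 4.28e-11 and 0.00603).

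For 3 that rose in sensitive cells it was negative: hexokinase HK2 (-1.82 ± 0.11), CHAC1 (-2.35 ± 0.15) and the chemokine CXCL8 (-2.44 ± 0.14). CHAC1 changed by 1.65 ± 0.11 in sensitive and -0.70 in resistant cells, and CXCL8 by 2.07 ± 0.097 and -0.38. For these 10 genes the response in the resistant line ran from -0.70 to 0.36.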

How the results depend on the processing

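Against 5367 rises and 5116 falls, other scalings gave 5342 to 5440 and 5042 to 5144, DESeq2 5160 and 5041, the 6 sensitive libraries alone 4735 and 4765, and a filter of 5 CPM 3880 and 3910. That filter also left 598 rises and 615 falls of at least 2-fold, against 1487 and 1154, as it tests fewer genes. Leaving out each library in turn gave 4902 to 5463 rises and 4594 to 5140 falls. Across the 462 genes named by the fixed rule 5916 alternative values kept direction and call. Of the rest 8 lost the call, in 2 genes that the report does not name, and 0 reversed. Genes named only for a count of members were not counted in this. Among those, KRT79, NUP62CL, BCL2L2 and STEAP3 lost the call without DMSO replicate 2, as given above. Of 3351 list counts and medians 156 moved. Depth limits the low genes: 3 counts, the limit that a count of 0 allows, are 0.067 to 0.0881 CPM.

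Replicate numbers did not pair the libraries: deviations of same-numbered DMSO and GNE-7883 libraries correlated at 0.25, 0.00 and -0.32, against up to 0.34 for other pairs. With a replicate block 5304 genes rose and 5001 fell.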

Other observations

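Among the 10 long non-coding genes with the largest called change, SFTA1P, a surfactant-associated pseudogene transcript, measured 77, 95.5 and 76.6 CPM with DMSO and 21, 22.5 and 22.6 CPM with GNE-7883 (-1.91 ± 0.082), a fall while the surfactant gene SFTPD rose. DISC1FP1 went from 10.5, 10.7 and 11.2 CPM to 1.39, 1.27 and 1.64 CPM (-2.91 ± 0.11). Rises included MIR29B2CHG (2.40 ± 0.23, or 2.09 without DMSO replicate 2) and MIRLET7IHG (1.80 ± 0.11), the host transcripts of microRNAs, LINC00649 (1.88 ± 0.12) and LINC02605 (2.47 ± 0.16). Long non-coding genes together took 0.643 ± 0.0182% (SD, n = 3) of counts with DMSO and 0.723 ± 0.00734% with GNE-7883.

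Potassium channel genes changed strongly in single members without a common direction, with 11 rises and 13 falls in 51 tested. Over all genes 29.8% rose and 28.4% fell. KCNK3, a leak channel, went from 0.413, 0.238 and 0.52 CPM to 2.34, 2.2 and 1.99 CPM (2.49 ± 0.27) and KCNJ13, an inward rectifier, from 0.436, 0.38 and 0.41 CPM to 1.97, 2.48 and 2.33 CPM (2.46 ± 0.2). KCNU1 went from 3.7, 4.95 and 3.88 CPM to 0.473, 0.272 and 0.954 CPM (-2.85 ± 0.24).

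By chromosome, the 946 tested genes of chromosome 6 rose in 35.7% and fell in 25.2%, with a median log2 fold change of 0.12 in sensitive cells and -0.01 in the resistant line. Without DMSO replicate 2 the shares were 34.2% and 26.4%. For the other autosomes and X the share that rose lay between 26.3% and 31.6%. Why chromosome 6 differs was not tested.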
